A study of Mus musculus with 6 samples.

Results

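The genes described here load peptides onto MHC class I molecules or make the immunoproteasome that cuts those peptides. They are the 9 genes B2m, Tap1, Tap2, Tapbp, Tapbpl, Erap1, Psmb8, Psmb9 and Psmb10, picked by gene symbol, with earlier results of these data known, and followed on every probe set that the platform annotation assigns to 1 of them. That gave 17 probe sets, of which 13 passed the filter on dim signals, and all 9 genes kept at least 1 tested probe set among the 10810 genes tested. The arrays were Affymetrix 3' arrays of total RNA from sorted marrow cells of the femur and tibia from HdcGFP females, whose background was C57BL/6. In these mice green fluorescent protein reports the activity of Hdc, the gene of histidine decarboxylase, and both groups carry the reporter. The GFP_plus group (3 arrays) held CD11b+Gr1+ cells with positive or high reporter signal, and the GFP_min group (3 arrays) held CD11b+Gr1+ cells with negative or low signal. For GFP_min replicate b one label reads Gr1-negative where the others read Gr1-positive. Nothing in the labels tells if each array is a different mouse, so the p-values reflect the scatter among these samples alone, and that scatter may be technical.

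MHC class I molecules show fragments of the cell's own proteins to CD8 T cells. The proteasome cuts proteins into peptides, the TAP transporter (Tap1 with Tap2) pumps them into the endoplasmic reticulum, tapasin (Tapbp) and its relative Tapbpl edit which peptide is bound, Erap1 trims peptides to length, and beta-2 microglobulin (B2m) completes the folded class I molecule. In cells exposed to interferon, and in many blood cells at rest, the catalytic subunits Psmb5, Psmb6 and Psmb7 are replaced by Psmb8, Psmb9 and Psmb10, which changes the peptides that are made. Psmb9, Tap1, Psmb8 and Tap2 lie next to each other inside the class II region of the MHC, while B2m, Tapbpl, Erap1 and Psmb10 lie on other chromosomes.

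The 6 arrays had medians between 2.82 and 2.88 on the deposited log2 scale, and each value below is a log2 expression level or a difference of such levels, GFP_plus minus GFP_min. Pearson correlations over all probe sets were 0.996 to 0.998 within groups and 0.978 to 0.982 between groups. With 3 arrays a group, the array number sets the precision. Markers are called lower or higher by the limma test described below, by which 27.6% of all tested genes were lower and 21.0% higher. Neutrophil markers were high in both groups, with a mean log2 level of 13.05 to 13.15 in GFP_plus and 12.52 to 12.57 in GFP_min over 13 tested genes, of which 8 were higher in GFP_plus. Monocyte markers had a mean level of 6.84 to 6.98 in GFP_plus and 11.78 to 11.87 in GFP_min, and all 13 tested were lower in GFP_plus. One of them, Vcan, lay below the array median on every GFP_plus array. Dendritic cell markers were at 3.71 to 3.77 in GFP_plus and 5.92 to 6.25 in GFP_min (5 of 7 lower, 1 higher). Cd209a, Irf4 and Siglech lay below the median on every GFP_plus array. B cell markers were at 3.68 to 3.80 in GFP_plus and 3.71 to 3.86 in GFP_min (1 of 5 lower), and T and NK cell markers at 4.89 to 5.25 and 4.93 to 5.21 (2 of 6 lower, 1 higher). In both lists the count lower is near the share of all tested genes. Basophil and mast cell markers were at 4.68 to 4.76 in GFP_plus and 2.64 to 2.68 in GFP_min (5 of 5 higher), eosinophil markers at 7.29 to 7.67 and 5.17 to 5.23 (2 of 2 higher), and erythroid markers at 5.46 to 5.52 and 4.86 to 4.94 (3 of 3 higher). Of these, Cpa3, Fcer1a and Car1 lay below the median on every GFP_min array. The reporter gene's own locus, Hdc, which the sort used, was 12.01 in GFP_plus and 11.19 in GFP_min. The gap between the 3' and 5' control probe sets, a measure of RNA integrity, was 0.64 in GFP_plus and 0.31 in GFP_min for Gapdh and 0.87 and 0.81 for beta-actin.

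The comparison asks how class I processing transcripts differ between CD11b+Gr1+ marrow cells with high and with low Hdc reporter signal. The 9 genes did not move as a block. Psmb10 was 3.94-fold lower and Psmb8 1.70-fold lower in GFP_plus, Tapbpl, Erap1 and B2m were lower by smaller amounts, and Psmb9, Tap1, Tap2 and Tapbp did not pass the test. By limma's moderated test, with p-values adjusted over every tested probe set (Benjamini-Hochberg), 5 of the 9 genes were lower, where 27.6% of all tested genes were lower. None of the 9 was higher at an adjusted p under 0.05 or at an unadjusted p under 0.05, where 21.0% of all tested genes were higher. Without GFP_min b, whose labels differ, 4 of the 9 were lower (25.3% of all tested genes), since Erap1 lost its call, and Tap2 alone was higher (19.3% of all tested genes). The values of the groups did not overlap for 5 of the 9 genes, and this held for 59.3% of all tested genes, so the share of the 9 is close to the background. The median difference of the 9 genes was -0.15, against 0.0023 over all tested genes. In RNA from sorted bulk samples, fewer cells of a type and less RNA per cell cannot be told apart. Monocyte markers were lower in the same GFP_plus samples (median difference -5.29), and their part in the differences of the 9 genes was not tested.

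**Figure D1:**
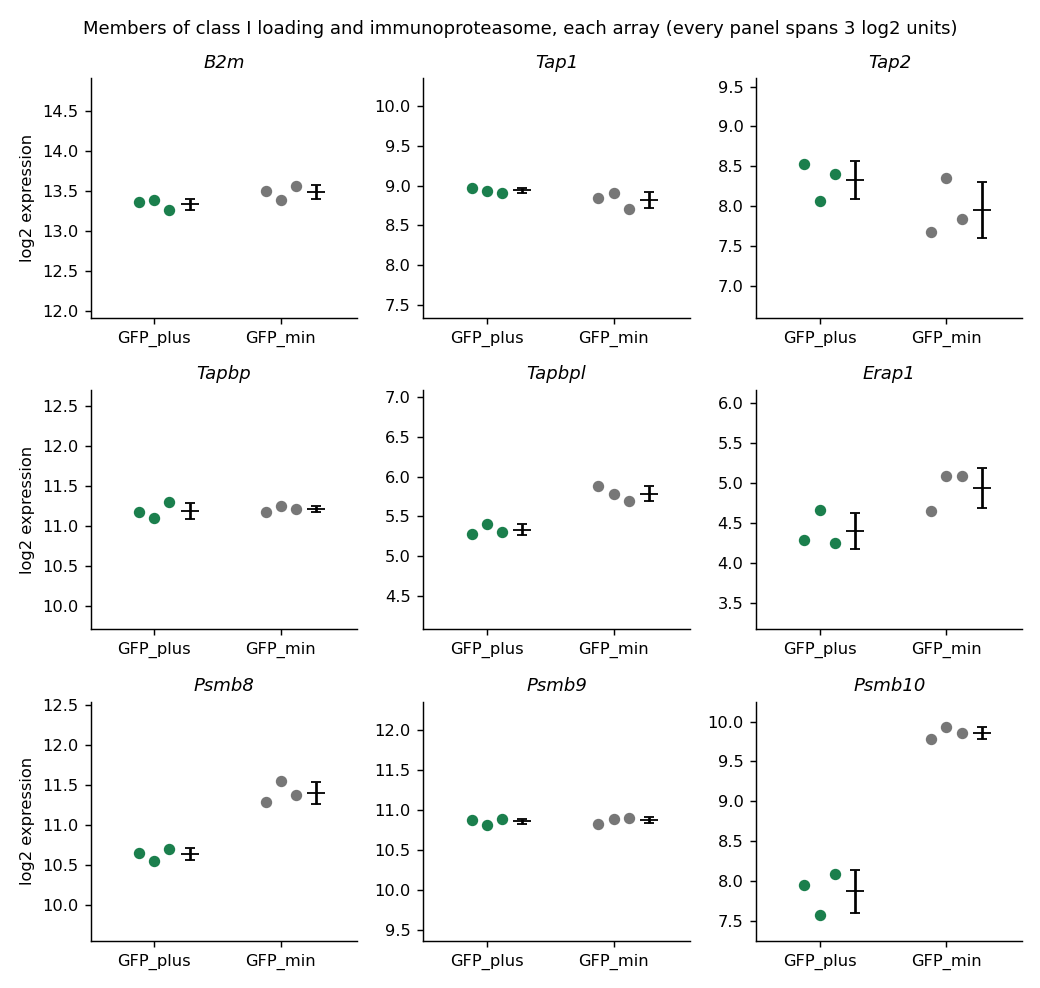
Log2 expression of each gene on each array (points), with the mean and SD of the group beside them (bars, n = 3), GFP_plus left and GFP_min right, for the probe set that stands for the gene. Every panel spans the same range, so that the gap of Psmb10 (7.88 against 9.85) can be set beside the near-equal groups of Psmb9 (10.86 against 10.88).

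Psmb10, also called MECL-1, is the immunoproteasome subunit with trypsin-like activity and takes the place of Psmb7. Its log2 level was 7.96, 7.57 and 8.10 in GFP_plus replicates a, b and c, against 9.78, 9.93 and 9.86 in GFP_min. Every GFP_plus array lay below every GFP_min array, and GFP_plus b was the lowest. The difference was -1.98 (SE 0.13, 95% interval -2.27 to -1.69, limma adjusted p = 1.71e-06). Of all 10810 genes tested, 319 (2.95%) fell by at least as much.

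Psmb8, or LMP7, is the chymotrypsin-like subunit that replaces Psmb5. It was at 10.65, 10.55 and 10.69 in GFP_plus, against 11.28, 11.55 and 11.37 in GFP_min. The groups did not overlap, and the fall was 0.77 on the log2 scale (difference -0.77, SE 0.08, adjusted p = 3.04e-05). The other tested Psmb8 probe set was dim, with means of 3.94 in GFP_plus and 4.07 in GFP_min, and did not pass (-0.13, adjusted p = 0.437). The larger fall is therefore the value of 1 of 2 probe sets. Among all tested genes, 1358 were called lower with a larger fall than Psmb8.

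Psmb9, or LMP2, replaces Psmb6. Its levels were 10.87, 10.82 and 10.89 in GFP_plus, against 10.83, 10.90 and 10.90 in GFP_min. The groups overlapped almost wholly, and the difference was -0.02 with a 95% interval of -0.14 to 0.11 (adjusted p = 0.822). Of the 3 immunoproteasome subunits, then, 2 fell and Psmb9 did not pass.

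The 250 bases before the starts of Psmb8 and Psmb10 are shown because these genes hold the largest falls (RefSeq, GRCm38.p6, each read 5′ to 3′ on the gene's own strand). Capitals mark the only match found in either, a gamma-activated site (TTCNNNGAA), a motif of interferon-responsive promoters.
Psmb8, chr17:34197945-34198194, plus strand: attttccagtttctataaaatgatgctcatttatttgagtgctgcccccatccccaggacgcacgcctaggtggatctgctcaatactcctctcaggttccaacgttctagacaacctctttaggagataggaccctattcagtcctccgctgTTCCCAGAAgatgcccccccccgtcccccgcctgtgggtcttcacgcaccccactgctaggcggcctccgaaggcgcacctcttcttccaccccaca
Psmb10, chr8:105938393-105938642, minus strand: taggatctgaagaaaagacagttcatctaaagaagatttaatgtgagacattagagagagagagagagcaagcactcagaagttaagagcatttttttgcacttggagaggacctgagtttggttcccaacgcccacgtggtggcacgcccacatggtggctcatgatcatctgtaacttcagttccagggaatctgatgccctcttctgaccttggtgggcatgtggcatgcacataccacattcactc

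The motifs were searched on both strands of the 250 bases before each start, in 7 of the 9 genes, those with a window in the RefSeq table. They were the core of the interferon-stimulated response element (GAAANNGAAA), which 2.98% of all 32851 windows held, the gamma-activated site, which 7.02% held, and a kappa B form (GGGANNTTCC), which 1.21% held. The Psmb8 match spans bases 97 to 89 before the start, and the Psmb10 window held none of these letters. A match is a description of the sequence and not a binding site shown by these data.

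Each immunoproteasome subunit was next set against the constitutive subunit it replaces on the same array, since a difference within an array does not change when a constant is added to all values of that array. After quantile normalization, which is not such a shift, the pairs differed by -0.53, 0.64 and -1.48 for Psmb8, Psmb9 and Psmb10, against -0.51, 0.66 and -1.42 on the deposited scale. Psmb5, Psmb6 and Psmb7 were themselves lower in GFP_plus on the deposited scale. With ribosomal centring none of them was lower by limma, Psmb5 was higher (0.45), and Psmb6 (0.028) and Psmb7 (0.14) did not pass. Psmb5 was 10.14 ± 0.12 in GFP_plus and 10.40 ± 0.06 in GFP_min (SD, n = 3 each), Psmb6 9.65 ± 0.10 and 10.33 ± 0.02, and Psmb7 7.39 ± 0.18 and 7.95 ± 0.09. The call of Psmb5 (-0.26, adjusted p = 0.0205) was lost without GFP_plus a (-0.27, 0.0518), GFP_plus b (-0.19, 0.0593), GFP_min b (-0.23, 0.0572) or GFP_min c (-0.26, 0.0574), and with the replicate letter as a block (adjusted p = 0.0713).

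The subunit pairs went different ways. Relative to the GFP_min mean, Psmb10 minus Psmb7 was -1.37, -1.88 and -1.003 in GFP_plus a, b and c, against -0.14, 0.033 and 0.10 in GFP_min, a 2.67-fold lower ratio. Psmb8 minus Psmb5 was -0.51, -0.46 and -0.55 in GFP_plus, against -0.053, 0.082 and -0.029 in GFP_min, a 1.42-fold lower ratio. With the mean of the Psmb8 probe sets this gap shrank to -0.19. Psmb9 minus Psmb6 was 0.56, 0.68 and 0.74 in GFP_plus, against -0.061, 0.0068 and 0.054 in GFP_min, a 1.58-fold higher ratio. All 3 pairs had groups without overlap. Among single genes this held for 59.3% of all tested genes, and no such share was counted for differences between 2 genes. By the exact two-sided permutation test each gave p = 0.1, the smallest that 3 arrays against 3 allow, and 0.1 after adjustment over the 3 pairs, so the design cannot pass the threshold here. Between members, and chosen after their values were seen, Psmb10 minus Psmb9 differed by -1.96 and Psmb8 minus Psmb9 by -0.75, also without overlap. These last values carry no test.

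**Figure D2:**
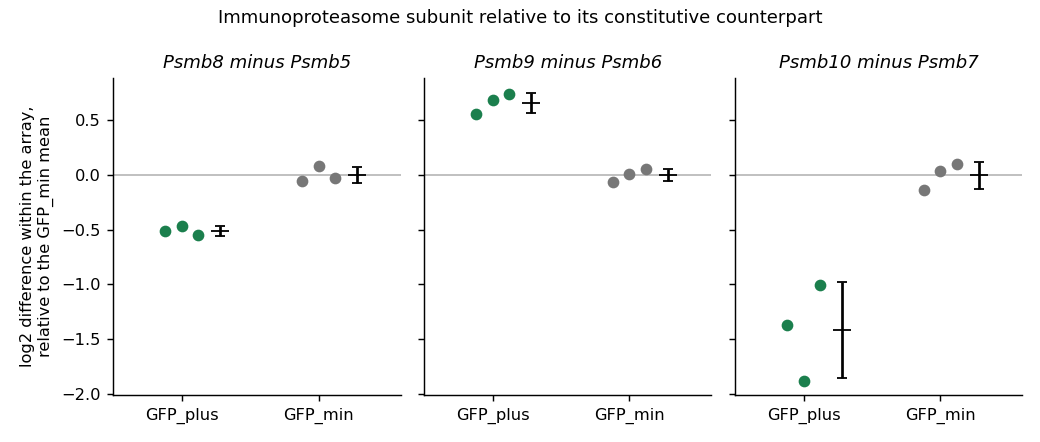
Log2 level of an immunoproteasome subunit minus that of its constitutive counterpart on the same array, set to 0 at the GFP_min mean (y axis), for GFP_plus (left) and GFP_min (right), points are arrays and bars mean and SD (n = 3). The Psmb9 pair lies above 0 in all GFP_plus arrays (0.56 to 0.74), while the Psmb8 and Psmb10 pairs lie below 0 (-0.46 to -0.55 and -1.003 to -1.88).

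Tap1 is a subunit of the peptide transporter. It was at 8.97, 8.93 and 8.91 in GFP_plus, against 8.84, 8.90 and 8.71 in GFP_min. All 3 GFP_plus values lay above the GFP_min values, but by a margin within the spread of GFP_min (difference 0.12, 95% interval -0.069 to 0.31, adjusted p = 0.275). The other 3 Tap1 probe sets, with group means between 1.79 and 2.69, lay near or below the array medians and were not tested. Tap2, the partner subunit, has 1 probe set, which was at 8.53, 8.06 and 8.40 in GFP_plus, against 7.68, 8.35 and 7.84 in GFP_min. GFP_min b stood above the other GFP_min arrays and overlapped GFP_plus, and the difference of 0.38 did not pass (95% interval -0.025 to 0.78, adjusted p = 0.116). Without that array, whose description differs, the difference was 0.57 (adjusted p = 0.0119).

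Tap1 and Psmb9 are read in opposite directions from starts that are 225 bases apart in RefSeq. The stretch between them is shown because the 2 genes share it and neither passed the test. It held none of the motifs above on either strand, and so it carries no capitals (GRCm38.p6, plus strand, 5′ to 3′, Tap1 to the right).
Psmb9 to Tap1, chr17:34187331-34187555: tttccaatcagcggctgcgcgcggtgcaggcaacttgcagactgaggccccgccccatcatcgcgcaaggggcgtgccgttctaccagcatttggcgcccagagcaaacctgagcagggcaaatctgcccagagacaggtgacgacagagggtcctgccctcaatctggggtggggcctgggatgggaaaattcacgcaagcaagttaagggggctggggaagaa

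Along the chromosome this block lies among class II genes, of which 4 of the 7 tested neighbours fell by more than Psmb8 and 3 did not pass. In gene order, and leaving out genes that were not tested, H2-Oa, Brd2, H2-DMa and H2-DMb2 come before Psmb9, and H2-Ab1, H2-Aa, H2-Eb1 and H2-Eb2 after Tap2. H2-DMa, which helps load class II molecules, was 4.37 ± 0.20 in GFP_plus and 9.54 ± 0.08 in GFP_min (SD, n = 3 each; -5.16, adjusted p = 2.24e-09). The class II chain genes H2-Ab1, H2-Aa and H2-Eb1 had differences of -2.12, -2.31 and -2.24. Within the block Psmb8 was the member that passed. Brd2 (0.10), a chromatin reader gene outside the antigen presentation pathway, did not pass, and neither did H2-Oa (-0.14), H2-DMb2 (0.41) or H2-Eb2 (0.10). The call of H2-DMb2 was made without GFP_min c (0.55, adjusted p = 0.0183).

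**Figure D3:**
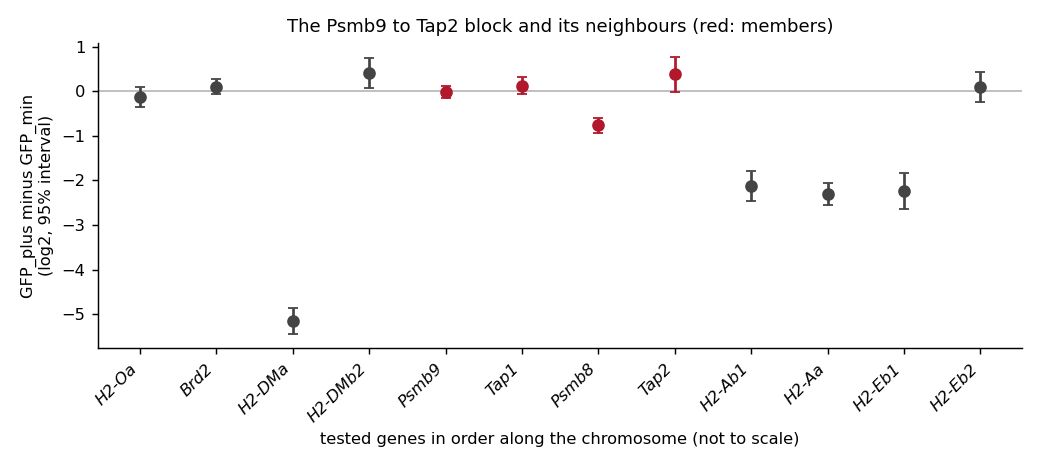
Difference between GFP_plus and GFP_min in log2 units with its 95% interval (y axis) for the tested genes around the Psmb9 to Tap2 block, in gene order and not to scale (x axis), members in red. H2-DMa (-5.16) and the 3 class II chain genes fell on both sides of the block, in which Psmb8 (-0.77) lay below 0 and Psmb9, Tap1 and Tap2 had intervals that include 0.

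Tapbp, tapasin, holds the class I molecule beside the transporter. It was at 11.17, 11.10 and 11.30 in GFP_plus, against 11.17, 11.24 and 11.21 in GFP_min. The groups overlapped, with a difference of -0.02 (95% interval -0.16 to 0.12, adjusted p = 0.846), and a second, dim probe set did not pass (-0.21, adjusted p = 0.285). Tapbpl, a tapasin relative that edits peptides outside the loading complex, was at 5.29, 5.41 and 5.31 in GFP_plus, against 5.88, 5.78 and 5.69 in GFP_min. Its groups did not overlap and it was 1.37-fold lower (-0.45, SE 0.13, adjusted p = 0.0179). That call was lost without GFP_plus a (-0.43, adjusted p = 0.0609) or GFP_min a (-0.40, 0.0672). A second Tapbpl probe set, with means of 2.69 in GFP_plus and 2.95 in GFP_min, was too dim for the filter.

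Erap1, the aminopeptidase that trims peptides in the endoplasmic reticulum, was at 4.29, 4.66 and 4.25 in GFP_plus, against 4.65, 5.08 and 5.09 in GFP_min. The groups overlapped, since GFP_plus b lay just above GFP_min a. The difference was -0.54 (SE 0.18, adjusted p = 0.0300), and a second probe set gave -0.064 (adjusted p = 0.825). The call was lost without GFP_plus a (-0.49, adjusted p = 0.0977), GFP_plus c (-0.47, 0.0882), GFP_min b (-0.47, 0.0869) or GFP_min c (-0.47, 0.0976).

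B2m, the light chain of all classical class I molecules and of several class I relatives, was at 13.36, 13.39 and 13.26 in GFP_plus, against 13.50, 13.39 and 13.56 in GFP_min. GFP_plus b and GFP_min b were equal to 2 decimals, and the other arrays were separate. The difference was -0.15 (SE 0.05, adjusted p = 0.0401), and the second probe set had a difference of -0.21 (adjusted p = 0.00396) without overlap. The first call was lost without GFP_plus a (-0.16, adjusted p = 0.0797), GFP_plus c (-0.11, 0.125), GFP_min a (-0.14, 0.101) or GFP_min c (-0.11, 0.156).

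The B2m promoter is shown because, of the windows searched, it alone held matches to 2 of the motifs (RefSeq, GRCm38.p6, plus strand, 5′ to 3′). Capitals mark the interferon-stimulated response element core at bases 139 to 130 before the start and, after 3 further bases, the kappa B form on the opposite strand at bases 126 to 117.
B2m, chr2:122147437-122147686: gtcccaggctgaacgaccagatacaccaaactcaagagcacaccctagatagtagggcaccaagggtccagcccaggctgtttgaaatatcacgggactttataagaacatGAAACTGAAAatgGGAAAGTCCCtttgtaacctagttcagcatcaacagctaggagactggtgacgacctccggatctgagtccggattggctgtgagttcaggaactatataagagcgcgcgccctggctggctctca

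How the arrays are scaled changes the direction of most of these differences. Centring each array on its tested probe sets adds 0.20 to every difference, centring on 82 probe sets of ribosomal proteins adds 0.71, and centring on 27 probe sets of the bacterial poly-A control RNAs adds -0.42. Psmb10 was lower under all of these and after quantile normalization, between -2.40 and -1.27. Psmb8 kept its sign but lost its call with ribosomal centring (-0.062, adjusted p = 0.481). With ribosomal centring B2m (0.56), Tap1 (0.83), Tap2 (1.08), Tapbp (0.69) and Psmb9 (0.69) were higher and 1 gene was lower, where 76.0% of all tested genes were higher and 8.40% lower. With median centring Tap1 (0.32), Tap2 (0.58), Tapbp (0.19) and Psmb9 (0.18) were higher and 2 genes lower, where 41.4% of all tested genes were higher and 19.3% lower. Tapbpl and Erap1 lost their calls with median centring (-0.25 and -0.34) and turned positive with ribosomal centring (0.25 and 0.16), without passing. With poly-A centring 7 genes were lower and none higher by limma, where 48.8% of all tested genes were lower and 2.59% higher, and Tap1 (-0.30) and Tap2 (-0.046) turned negative without passing. The poly-A control medians varied within groups, from 4.83 to 5.10 in GFP_plus and from 4.37 to 4.73 in GFP_min. Centring on them gives all probe sets of an array a shared error, which limma does not model. Calls and shares with poly-A centring, here and below, are therefore not reliable.

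**Figure D4:**
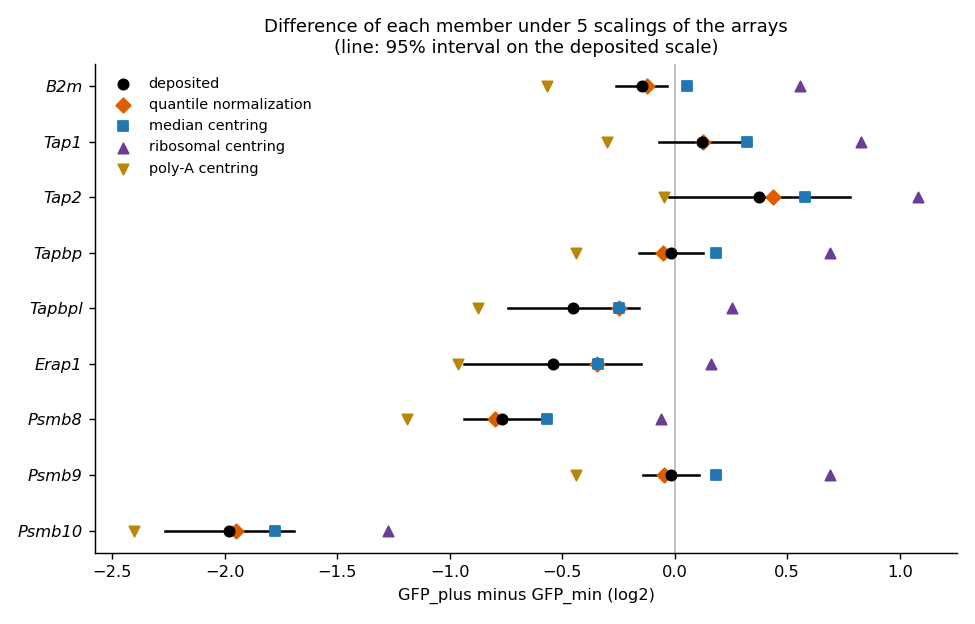
Difference between GFP_plus and GFP_min in log2 units (x axis) for each gene under 5 scalings of the arrays (symbols), with the 95% interval on the deposited scale (line). Psmb10 lies below 0 under all 5 scalings (-2.40 to -1.27), while B2m ranges from -0.57 to 0.56.

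Genes around this pathway were counted with the same test, in lists chosen with earlier results of these data known. The shares of all tested genes belong beside each count below. They were 27.6% lower and 21.0% higher on the deposited scale. With ribosomal centring they were 8.40% lower and 76.0% higher, and with poly-A centring, whose calls are not reliable, 48.8% lower and 2.59% higher. No list was tested as a set against these shares. The heavy chains and class I relatives were mixed, with 3 of 9 tested genes lower and 4 higher (median 0.23). With ribosomal centring 3 were lower and 6 higher, and with poly-A centring 3 were lower and 1, H2-Q10, higher. The classical heavy chain genes H2-K1 and H2-D1 were 1.24-fold and 1.19-fold higher in GFP_plus (0.31 and 0.25). Only 1 of 4 tested H2-K1 probe sets and 6 of 8 of H2-D1 gave that call, both turned negative with poly-A centring (-0.12 and -0.17), and cross-hybridization between class I genes makes each of these values uncertain. Of 10 tested probe sets that the annotation gives to several class I genes, 2 were lower and none higher by limma, with differences between -0.46 and 0.30. H2-Q10, a class I gene of the Q region, rose by 1.21 (adjusted p = 1.04e-06) on its 1 tested probe set. Cross-hybridization between class I genes makes this value uncertain too. H2-Bl rose by 0.78, a call lost without GFP_min b (0.64, adjusted p = 0.0570) and with poly-A centring (0.35).

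The 3 genes of this list that fell are relatives of the classical heavy chains. H2-M3, which presents formylated bacterial peptides, was 5.04 ± 0.33 in GFP_plus and 8.30 ± 0.15 in GFP_min (SD, n = 3 each), 9.58-fold lower (adjusted p = 4.10e-07). Hfe, the regulator of iron uptake that pairs with B2m, was 4.10 ± 0.39 in GFP_plus and 7.40 ± 0.17 in GFP_min, 9.86-fold lower (adjusted p = 1.01e-06). Fcgrt, the neonatal Fc receptor, which also pairs with B2m, was 3.33-fold lower (-1.74). These 3 falls kept their direction and call with ribosomal centring (-2.55, -2.60 and -1.03).

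The chaperones and channel of the endoplasmic reticulum that serve class I and other proteins fell in 10 of 11 cases, with no rise called by limma (median -0.54), but with ribosomal centring 1 was lower and 5 higher. Pdia3, the disulphide isomerase of the loading complex, was 10.35 ± 0.10 in GFP_plus and 11.07 ± 0.0054 in GFP_min (SD, n = 3 each; -0.73, adjusted p = 1.51e-05). Calr and Canx, the lectin chaperones that hold new heavy chains, were lower by 0.47 and 0.58 on the log2 scale. With ribosomal centring Calr was called higher (0.24) and Canx did not pass (0.13). The largest falls were those of Pdia4 (-1.14) and Pdia6 (-1.13), both disulphide isomerases. With ribosomal centring Pdia3 (-0.020) and Pdia4 (-0.43) did not pass, and Pdia6 (-0.43) kept its call.

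Proteasome activators and assembly factors were lower for 5 of 8 and higher for none by limma (median -0.34), and with ribosomal centring 2 were lower and 5 higher. Psme1, a chain of the interferon-inducible PA28 cap, was lower by 0.37 on the log2 scale, but was called higher with ribosomal centring (0.33). Pomp, the chaperone that assembles the immunoproteasome and the constitutive core, was 10.28 ± 0.0043 in GFP_plus and 11.20 ± 0.09 in GFP_min (SD, n = 3 each; -0.91, adjusted p = 2.35e-06), and kept its call with ribosomal centring (-0.21). Psmg4, another assembly chaperone, was at least 4.24-fold lower, since it lay below the array median on all GFP_plus arrays (limma adjusted p = 2.05e-06 for its measured means of 2.60 and 4.95). Peptidases that trim or destroy peptides were lower for 5 of 8 (median -0.72), Lap3 by 0.92 and Nln by 0.90 on the log2 scale, and 1, Npepps, was higher by 0.30. With ribosomal centring none of these 8 was lower and 3 were higher by limma.

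Regulators of class I transcription were lower for 4 of 15 and higher for 2 (median 0.016), where 27.6% of all tested genes were lower and 21.0% higher. With ribosomal centring 2 were lower and 11 higher, where 8.40% of all tested genes were lower and 76.0% higher. The 4 lower, and the 11 higher with ribosomal centring, are close to the shares of all tested genes. Nlrc5, the transactivator that drives class I heavy chains, B2m, Tap1 and Psmb9, was 4.86 ± 0.44 in GFP_plus and 6.69 ± 0.18 in GFP_min (SD, n = 3 each), 3.56-fold lower (adjusted p = 8.84e-05), and kept its call with ribosomal centring (-1.13). Irf8, which binds interferon response elements in myeloid cells and is also a monocyte marker here, was 5.63 ± 0.16 in GFP_plus and 10.69 ± 0.07 in GFP_min (-5.05, adjusted p = 8.53e-10). Irf1, an activator of the Tap1 and Psmb9 promoter, was 10.68 ± 0.13 in GFP_plus and 10.07 ± 0.06 in GFP_min, 1.53-fold higher (adjusted p = 0.000154), and it lost its call with poly-A centring (0.19). Nfya, a CCAAT-binding subunit, was higher by 0.51, with 1 of 2 probe sets giving the call.

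Receptors and kinases of interferon signalling were lower for 4 of 8 and higher for 2 (median -0.31). With ribosomal centring 1 was lower and 5 higher, where 8.40% of all tested genes were lower and 76.0% higher. Ifngr1, the ligand-binding chain of the interferon-gamma receptor, was lower by 0.57 on the log2 scale, Ifngr2 by 0.74 and the kinase gene Tyk2 by 1.16. For Ifngr2 and for Tyk2, 1 of 2 tested probe sets gave the call. Jak1 was higher by 0.35 and turned negative with poly-A centring (-0.076). Socs3, a feedback inhibitor of cytokine signalling, was 10.45 ± 0.27 in GFP_plus and 9.02 ± 0.06 in GFP_min (SD, n = 3 each; 1.42, adjusted p = 1.01e-05).

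Interferon-induced genes went both ways, with 12 of 24 lower and 9 higher (median -0.28). Oasl1 (1.00) and Oas3 (0.96), of the oligoadenylate synthetase family, had the largest rises. Mx1, an antiviral GTPase, was 3.32 ± 0.21 in GFP_plus and 8.40 ± 0.09 in GFP_min (SD, n = 3 each; -5.08, adjusted p = 5.37e-09), and Gbp3, a guanylate-binding protein, was lower by 2.96 on the log2 scale. With ribosomal centring 6 of this list were lower and 14 higher, and with poly-A centring 13 were lower and 3 higher. MHC class II genes were lower for 5 of 7 and higher for none by limma (median -2.12), with H2-DMa and H2-Aa the largest falls. With ribosomal centring 5 were lower and 2 higher (H2-DMb2 1.12, H2-Oa 0.57), and with poly-A centring 6 were lower. The part of the lower monocyte markers in the falls of these lists was not tested.

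**Figure D5:**
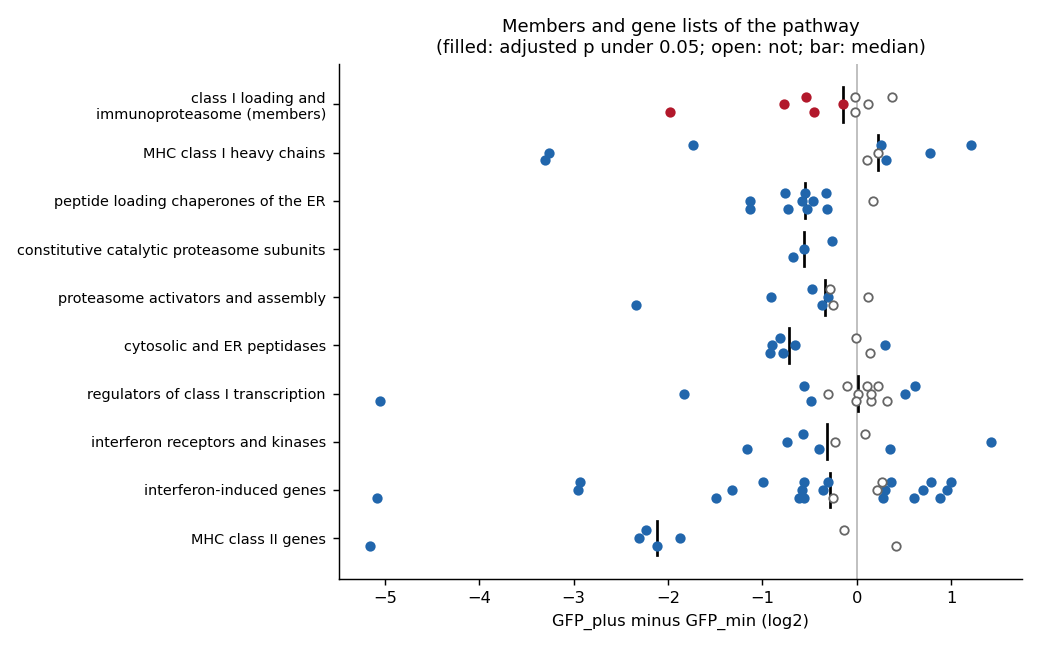
Difference between GFP_plus and GFP_min in log2 units (x axis) for each tested gene of the 9 members (red) and of 9 lists around the pathway (blue), filled where the limma adjusted p was under 0.05, with the list's median as a bar. The members (median -0.15) lie between the class I heavy chains (0.23) and the endoplasmic reticulum chaperones (-0.54), and Psmb10 (-1.98) lies apart from the other 8.

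The genes whose centred log2 values over the 6 arrays lay nearest to those of Psmb10, by root mean square distance, were Osgep (0.072), Mrc1 (0.096), P2rx4 (0.12), Nt5c (0.12) and Slc16a10 (0.13). All 5, like Psmb10, were lowest on GFP_plus b, which follows in part from picking them by these same values. Osgep was at 6.35, 5.97 and 6.36 in GFP_plus, against 8.24, 8.31 and 8.35 in GFP_min. Mrc1, the mannose receptor of macrophages and dendritic cells, was at 4.20, 4.01 and 4.46 in GFP_plus, against 5.98, 6.30 and 6.33 in GFP_min. All 5 share with Psmb10 the split between the groups and the 6 arrays on which it was measured.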

How the data were processed

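Total RNA of sorted marrow cells was hybridised to Affymetrix 3' arrays. As deposited by the authors, the values are log2 expression of 45101 probe sets on 6 arrays. The submitters' processing notes name GCRMA, with no settings. The log2 scale was read from the values. Probe sets were named from the platform annotation (34958 with 1 symbol, 932 with several), and symbols were updated through RefSeq gene IDs (GRCm38.p6).

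After 64 control probe sets were set aside, 22956 probe sets that lay above the array's median on 3 or more arrays were tested. The probe set with the highest mean stood for a gene. GFP_plus minus GFP_min was fitted by limma 3.58.1 (R 4.3.3; lmFit, then eBayes with its trend option). P-values were adjusted by Benjamini-Hochberg across the tested probe sets, and 0.05 was the threshold. The fit was tested on simulated data. Where a gene lay below the median of every array of a group, its fold is a bound against those medians.

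The members and lists were chosen with earlier results of these data known. Named genes were the 9 members, the called genes with the 2 largest rises and 2 largest falls of each list, and a fixed set that includes Nlrc5, Irf1, Calr, Canx, Pdia3, Psmb5, Psmb6, Psmb7, Psme1 and Ifngr1; the rest of that set is not reported here. H2-K1, H2-D1 and Fcgrt fall outside this rule and were chosen after their values were seen, and the neighbours of Psmb9 to Tap2 were taken by position. Subunit pairs were tested by exact permutation over arrays (scipy 1.17.1). Alternatives changed the filter, variance model, array weights, scaling, probe set, replicate block and the arrays used. Promoters came from RefSeq. Figures were drawn with matplotlib 3.10.9.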

Additional observations from a re-analysis of the deposited data

How the results depend on the processing

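Psmb10 was lower and called under all 17 alternatives (-2.40 to -1.27), and Psmb8 lower under all 17 (-1.19 to -0.062) and called under 16 of them. The calls with poly-A centring are not reliable. The groups of both genes did not overlap, so leaving out 1 array could not turn either sign. Changes of the filter, intensity trend or replicate block left both differences as they were. For Psmb10, with 1 tested probe set, so did changing the probe set. The count of members lower was 5 on the deposited scale, where 27.6% of all tested genes were lower. It was 2 with median centring (19.3% of all tested genes) and 1 with ribosomal centring (8.40%). It was 3 after quantile normalization, 3 with the replicate block and 1 when a difference of at least 1 log2 was also required. Without 1 array it was 2 to 5, with 2 without GFP_plus a. The count of members higher was 0 on the deposited scale, where 21.0% of all tested genes were higher. It was 4 with median centring (41.4% of all tested genes) and 5 with ribosomal centring (76.0%). It was 1 with array weights (Tap2) and 0 to 1 without 1 array, with Tap2 the 1 called without GFP_min b (19.3%). Where no share is given for a setting, that of all tested genes was not counted, so the member count cannot be set against it. Without the intensity trend B2m lost its call (adjusted p = 0.217), and with the mean of its probe sets so did Erap1 (-0.30, 0.122). The cause of these changes was not tested, beyond what each centring adds.

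Signs turned with median centring for B2m (0.055), Tapbp (0.19) and Psmb9 (0.18). With ribosomal centring they turned for B2m (0.56), Tapbp (0.69), Tapbpl (0.25), Erap1 (0.16) and Psmb9 (0.69), and with poly-A centring for Tap1 (-0.30) and Tap2 (-0.046). Without 1 array Tapbp ranged from -0.072 to 0.027 and Psmb9 from -0.041 to 0.0027, across 0 in both. The subunit pairs kept their direction under all 9 alternatives run for them. Psmb10 minus Psmb7 lay between -1.62 and -1.19, Psmb8 minus Psmb5 between -0.54 and -0.19 and Psmb9 minus Psmb6 between 0.62 and 0.71. The groups of each pair did not overlap, so leaving out 1 array could not turn a sign. Each gene of the Psmb9 and Psmb10 pairs has 1 tested probe set, so the probe set alternatives repeated their deposited values. For both of these pairs only quantile normalization could have turned the direction.

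Deviations of same-letter arrays from their group means had correlations of -0.18, -0.30 and -0.22 for a, b and c. From 3 arrays a group these values cannot tell if the letters pair the samples, and the labels do not say. With the letter as a replicate block, B2m (-0.15, adjusted p = 0.115) and Tapbpl (-0.45, 0.0565) were not called. Dim signal kept 3 Tap1 probe sets and 1 of Tapbpl out of the tests.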
